A study of Mus musculus with 17 samples.

Results

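Collagen genes encode the chains of the collagens, the main structural proteins of the extracellular matrix. They were taken here as every gene whose symbol is Col, a type number, the letter a and a chain number, which gave 44 genes of the 55450 in the bulk expression table. All 44 were also found by symbol among the 35849 genes of the single-cell matrices. The rule used names and no measured value.

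Each collagen molecule is built from 3 chains wound into a helix, and the types differ in how these helices assemble. Fibrillar collagens (types I, II, III, V, XI and others) form the fibrils of connective tissue, type II and its partners IX and XI those of cartilage. Type IV forms the sheet-like network of basement membranes on which epithelia rest, type VI forms beaded filaments, type VII anchors epithelia to the stroma, and types XII and XVI decorate fibrils. Epithelial cells are known for basement membrane collagens, and fibroblasts, pericytes and smooth muscle cells for types I, III, V and VI.

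The study asked how cancer cell lines from different organs of the same mouse model differ. The lines came from 10 female MMTV-PyMT mice, in which the mouse mammary tumor virus promoter drives the polyoma middle T oncogene in mammary epithelium, and the tumor-bearing mice were 10 to 12 weeks old. Cells of the primary mammary fat pad tumor (MFP) and of metastases in lymph nodes (LN), bone marrow (BM) and lung were grown in culture and sorted as EpCAM high, and the metastatic lines also as CD44low or CD44high. All groups therefore carry the transgene and have passed through culture, and none is fresh tissue. Bulk RNA was sequenced from 2 libraries in each of 7 groups (MFP, LN CD44low, LN CD44high, BM CD44low, BM CD44high, lung CD44low and lung CD44high), the replicates of a group being distinct clonal isolates from different mice. Single-cell counts were analysed from 1 library each of lung CD44high, lung CD44low and LN CD44high cells.

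The bulk values are TPM, transcript levels scaled by gene length and by the total of the library, so levels may be compared between genes. Read depth is unknown from such values, and between 11508 and 13052 genes reached 1 TPM. Differences were tested with limma on log2(TPM + 1) over the 15348 genes that reached 1 TPM in 2 or more libraries. A gene is called where it differs by more than 2 on this log2 scale and its adjusted p is below 0.05. With 1 added to each TPM this is not a fold of TPM, and differences between low levels come out smaller. A gene high in 1 group can reach the minimum level through that group alone, and calls for that group then rest partly on the filter. With 2 libraries against 2, an exact permutation test of a single gene could not go below p = 0.333, so only the fit across genes was used. The labels and the markers did not fully match. Epcam, the surface marker used in the sort, was listed at 0 and 0 TPM in the lung CD44low libraries and 0.23 and 0.86 TPM in the lung CD44high libraries, and between 315.1 and 941 TPM in the other 10. Cdh1, the epithelial cadherin, was at or below 0.03 TPM in all 4 lung libraries. The lung libraries are therefore named by their labels throughout and not taken as shown to be epithelial.

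Of the 44 collagen genes, 25 reached the minimum level and were tested. The other 19 never exceeded 0.58 TPM (Col17a1 in MFP), and 2 of them, Col13a1 and Col6a5, were listed at 0 in all 14 libraries. Among the tested genes, 20 were called in at least 1 of 12 comparisons and 5 were not (Col11a2, Col27a1, Col4a6, Col9a2 and Col9a3). The share of all genes called in at least 1 comparison was not computed, so this count is not read as a trait of collagens. Shares of all genes are given below for each comparison.

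The genes lie on 15 chromosomes, and their longest annotated transcripts have between 3 and 119 exons with a median of 46.5 (mm10, GENCODE vM21). To show the upstream sequence of genes with their highest levels in different groups, the 150 bases before the transcription start of 8 of them are printed 5′ to 3′ on the gene's strand from RefSeq (GRCm38.p6, the mm10 assembly), chosen where these bases overlap no annotated exon. A window was found for 35 of the 44 symbols, and for 20 of the 25 tested. The first 3 genes had their highest levels in lung CD44low lines, the next 3 in LN and BM lines and the last pair in MFP. Col11a2 and Col4a6 among them were called in no comparison. Capitals mark a match on either strand to the TATA box (letters TATAAA), the 5-letter CCAAT box, the GC box (letters GGGCGG) or a motif of SOX factors (letters ACAAAG), and no matches overlap in the printed runs.
Col3a1 (chr1:45311388-45311537, forward strand): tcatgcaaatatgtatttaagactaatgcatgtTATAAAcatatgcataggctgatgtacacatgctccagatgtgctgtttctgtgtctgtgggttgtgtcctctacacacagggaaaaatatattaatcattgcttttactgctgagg
Col8a1 (chr16:57754738-57754887, reverse strand): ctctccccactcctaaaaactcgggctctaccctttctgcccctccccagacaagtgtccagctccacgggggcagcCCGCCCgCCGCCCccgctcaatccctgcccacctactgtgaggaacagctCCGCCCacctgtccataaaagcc
Col28a1 (chr6:8192618-8192767, reverse strand): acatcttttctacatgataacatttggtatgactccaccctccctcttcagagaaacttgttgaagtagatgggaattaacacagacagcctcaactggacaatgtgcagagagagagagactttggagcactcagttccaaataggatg
Col9a1 (chr1:24177460-24177609, forward strand): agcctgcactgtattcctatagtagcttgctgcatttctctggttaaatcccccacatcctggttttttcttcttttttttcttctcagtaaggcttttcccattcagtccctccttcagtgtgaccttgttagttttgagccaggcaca
Col11a1 (chr3:114030390-114030539, forward strand): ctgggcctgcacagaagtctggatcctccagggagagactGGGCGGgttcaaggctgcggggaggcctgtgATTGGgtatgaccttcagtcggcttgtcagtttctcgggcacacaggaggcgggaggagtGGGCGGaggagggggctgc
Col11a2 (chr17:34038988-34039137, forward strand): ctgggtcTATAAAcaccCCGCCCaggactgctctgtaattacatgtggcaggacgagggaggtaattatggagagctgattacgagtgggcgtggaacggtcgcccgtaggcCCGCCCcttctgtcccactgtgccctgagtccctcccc
Col7a1 (chr9:108953436-108953585, forward strand): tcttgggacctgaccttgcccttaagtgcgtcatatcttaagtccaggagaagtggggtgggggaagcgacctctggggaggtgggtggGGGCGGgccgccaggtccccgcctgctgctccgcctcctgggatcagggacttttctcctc
Col4a6 (chrX:141474077-141474226, reverse strand): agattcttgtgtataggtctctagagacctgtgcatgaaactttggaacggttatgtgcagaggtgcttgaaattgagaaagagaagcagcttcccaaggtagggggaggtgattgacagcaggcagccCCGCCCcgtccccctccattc

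The printed Col3a1 and Col11a2 runs hold a TATA box, the Col11a1 run a CCAAT box, and 5 of the 8 runs hold GC boxes, whereas the Col28a1 run and this Col9a1 run hold none of these letters. In the full 250 bases upstream, the TATA box occurred in 2 of 23 windows of tested collagen genes and in 12.4% of 32851 windows of all genes. The CCAAT box occurred in 9 of the 23 and in 33.8% of all windows, the GC box in 15 and in 32.7%, and the SOX motif in 2 and in 16.5%. Such matches describe letters and not bound sites.

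The summed level of the 44 genes differed between the groups and so did its make-up. The MFP libraries held 183 and 134 collagen TPM, of which the type IV genes of the basement membrane network made up 63.5% and 77.5%. The LN CD44low libraries held 284 and 323 TPM, LN CD44high 553 and 589, BM CD44low 537 and 625 and BM CD44high 646 and 621. In both LN CD44high and all 4 BM libraries fibrillar collagens made up between 43.4% and 58.7%, against 0.693% and 0.187% in MFP. The lung CD44low libraries held the highest sums, 911 and 1361 TPM, and the lung CD44high libraries 441 and 207 TPM, of which fibril-associated collagens made up 74.8% and 55.5%. Col4a1 led in MFP (44.8% and 54.2% of collagen TPM), Col2a1 in all LN CD44high and BM libraries (35.7% to 51.0%), Col8a1 in lung CD44low (37.3% and 23.5%) and Col12a1 in lung CD44high (74.2% and 53.7%). The LN CD44low libraries had different leaders, Col4a1 (26.0%) in replicate 1, as in MFP, and Col6a1 (22.5%) in replicate 2. In bulk RNA a higher level in each cell and a larger share of cells that express a gene cannot be told apart.

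**Figure D1:**
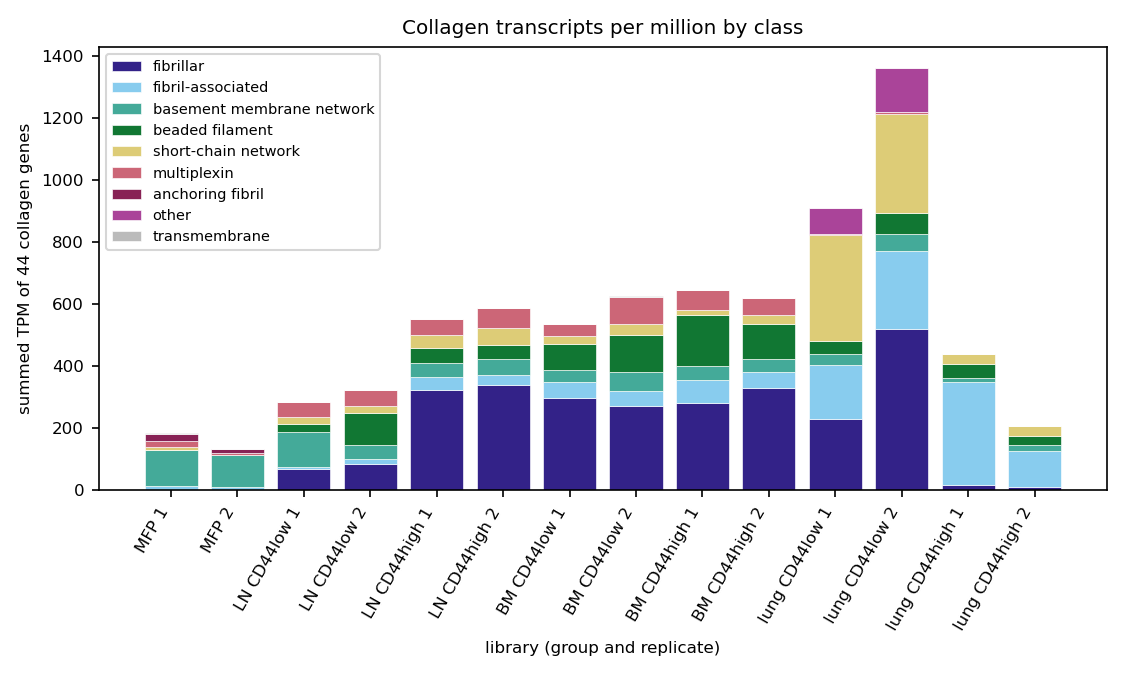
Stacked bars give the summed TPM of the 44 collagen genes in each of the 14 bulk libraries (vertical axis, from 0), split by collagen class. The lung CD44low bars reach 911 and 1361 TPM and the MFP bars 183 and 134 TPM, and fibrillar genes form the lowest segment of the LN and BM bars.

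Each group of metastatic lines was compared with MFP to ask which collagens separate them from the primary tumor line. These 6 comparisons share the same 2 MFP libraries and are not independent. In LN CD44low against MFP, 8 of the 25 tested collagen genes were called higher (background 2.07% of all genes tested) and 2 lower (2.72%), and without MFP replicate 2 the total fell from 10 to 6. In LN CD44high 9 were higher (2.44%) and 1 was lower (3.68%). In BM CD44low 9 were higher (3.99%) and 1 was lower (3.17%), and in BM CD44high 10 were higher (3.64%) and 2 lower (4.03%). With a pseudocount of 0.1 in place of 1, LN CD44high had 13 higher and 2 lower and BM CD44low 14 higher and 2 lower. In lung CD44low 13 were higher (11.2%) and 3 lower (7.62%), whereas in lung CD44high 5 were higher (5.42%) and 4 lower (8.03%). The share of collagen genes called higher lay above the share of all genes in each of these comparisons. The share called lower did too, by little in LN CD44high (4% against 3.68%) and by more in lung CD44high (16% against 8.03%). Col1a2, Col3a1, Col5a2 and Col28a1 entered the test only through lung CD44low, and Col7a1 and Col4a6 only through MFP. The counts therefore rest partly on the filter. The median log2 difference of the collagen genes against that of all tested genes was 0.60 against -0.18 in LN CD44low, 0.78 against -0.30 in LN CD44high, 1.26 against -0.04 in BM CD44low and 1.27 against -0.34 in BM CD44high. In the lung lines it was 2.35 against 0.00 for CD44low and 0.00 against -0.04 for CD44high. The groups are not ranked by this median, since Col1a2, Col3a1, Col5a2 and Col28a1 were tested only through lung CD44low and raise its value there.

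**Figure D2:**
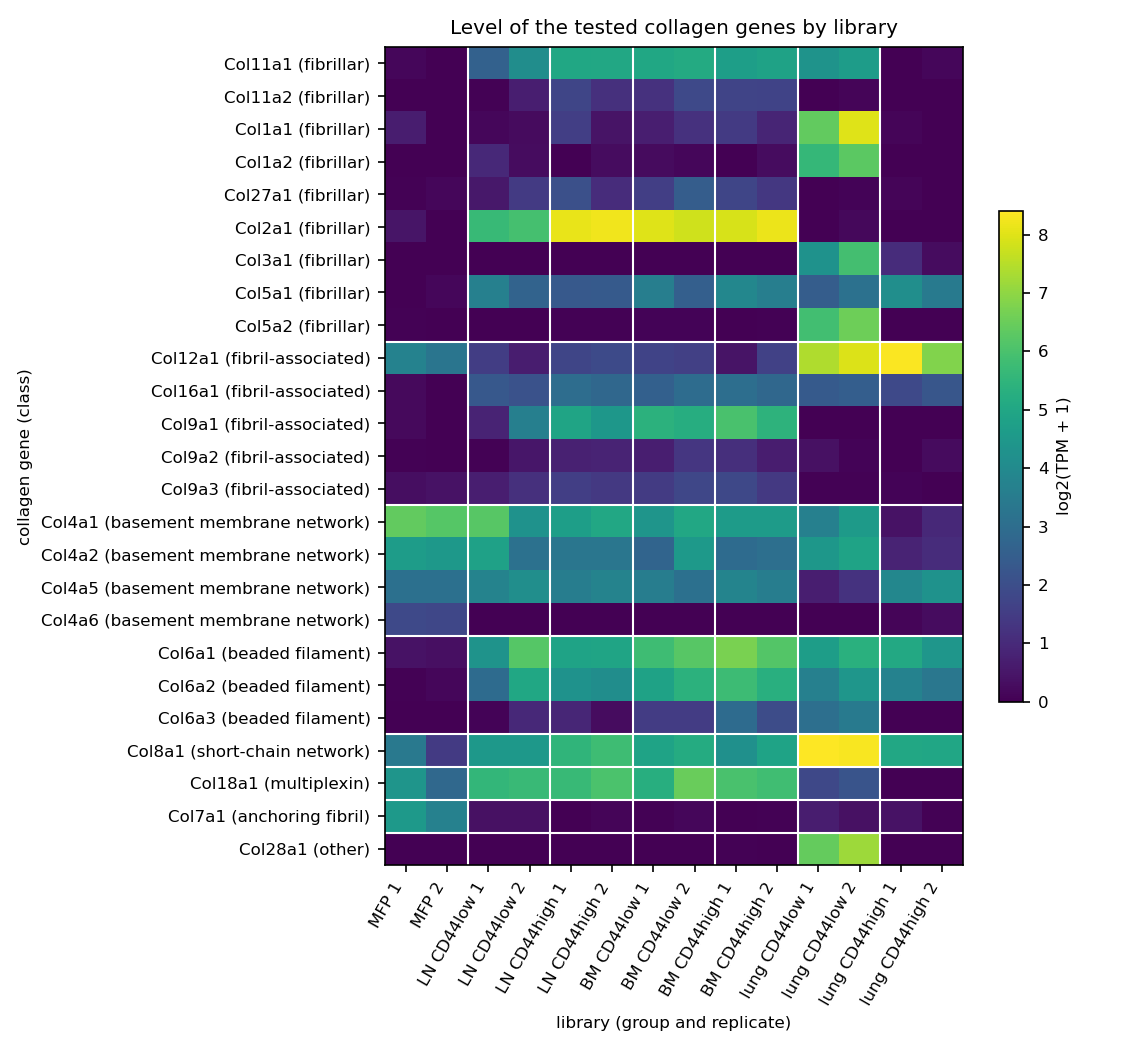
Colors give log2(TPM + 1) of the 25 tested collagen genes (rows, by class) in the 14 bulk libraries (columns, 2 per group). Col2a1 is brightest in the LN and BM columns, Col1a1, Col1a2, Col3a1, Col5a2 and Col28a1 in the lung CD44low columns, and Col7a1 and Col4a6 in the MFP columns.

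The interstitial fibrillar collagens of connective tissue were high in lung CD44low lines and near 0 elsewhere. Col1a1, the main chain of type I collagen (mm10, chr11:94936224-94953042), was at 83.3 and 257 TPM in lung CD44low and at 0.08 and 0.02 TPM in lung CD44high. Its MFP libraries held 0.58 and 0 TPM, and its highest level in any LN or BM library was 1.98 TPM. The lung CD44low libraries did not overlap any other library, although they lay far from each other. The log2 difference to MFP was 6.87 (SE 0.54, adjusted p = 4.8e-06). The SE and p of the fit draw on the spread in all 7 groups, most of them near 0 for this gene. They may thus understate the spread within lung CD44low, here and for Col1a2, Col3a1 and Col5a2 below. Col1a2, the partner chain (chr6:4504814-4541544), was at 47.8 and 77.8 TPM in lung CD44low, was listed at 0 in both MFP and both lung CD44high libraries, and did not exceed 0.97 TPM in LN and BM. Its call against MFP had adjusted p = 1.5e-07, and no fold is given against a group listed at 0. Col3a1, a fibrillar collagen that accompanies type I in soft tissue, was at 18.7 and 59 TPM in lung CD44low, 1.08 and 0.2 TPM in lung CD44high and at or below 0.02 TPM in the other 10 libraries, with adjusted p = 8.8e-06 against MFP. Col5a2, a chain of the type V collagen that starts fibrils, was at 57 and 93.1 TPM in lung CD44low and at or below 0.07 TPM in every other library (adjusted p = 2e-08 against MFP).

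The other type V chain, Col5a1, behaved differently and was present in every group but MFP. It was at 0.01 and 0.11 TPM in the MFP pair, 11.7 and 5.43 TPM in LN CD44low, 4.14 and 4.21 TPM in LN CD44high, 11.2 and 4.91 TPM in BM CD44low and 13.9 and 11 TPM in BM CD44high. In the lung lines it was at 4.64 and 7.73 TPM for CD44low and 16.8 and 9.99 TPM for CD44high. No metastatic library overlapped MFP, and Col5a1 was called higher in each of the comparisons with it, by 2.29 (LN CD44high) to 3.72 (lung CD44high).

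LN and BM lines carried collagens that are known from cartilage. Col2a1, the chain of type II collagen (chr15:97975602-98004695), was at 253 and 223 TPM in BM CD44low, 236 and 287 TPM in BM CD44high, 282 and 299.7 TPM in LN CD44high and 49.7 and 60.4 TPM in LN CD44low. It did not exceed 0.38 TPM in MFP and 0.14 TPM in the lung lines, so the 8 LN and BM libraries stood apart from the other 6. Against MFP the log2 difference was 5.56 (SE 0.22, adjusted p = 3.5e-07) in LN CD44low, 7.94 (SE 0.22, adjusted p = 4.5e-08) in LN CD44high, 7.65 (SE 0.22, adjusted p = 3.5e-08) in BM CD44low and 7.78 (SE 0.22, adjusted p = 4.5e-08) in BM CD44high. Col9a1, a chain of the type IX collagen that coats type II fibrils, was at 41.5 and 36.8 TPM in BM CD44low, 63.5 and 41.9 TPM in BM CD44high, 28.9 and 20.7 TPM in LN CD44high and 0.77 and 11.4 TPM in LN CD44low. It was listed at 0 in all 4 lung libraries and at 0.16 and 0 TPM in MFP. The calls against MFP were made in LN CD44high (adjusted p = 0.0013) and both BM groups (adjusted p = 0.00055 and 0.00032), and LN CD44low, whose libraries lay far apart, was not called (adjusted p = 0.075).

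Col11a1, a fibrillar chain that joins type II in cartilage fibrils, was shared by LN, BM and lung CD44low lines. It was at 5.14 and 16.6 TPM in LN CD44low, 31 and 31.8 TPM in LN CD44high, 31 and 34.2 TPM in BM CD44low and 25.5 and 27.7 TPM in BM CD44high. Lung CD44low held 18.8 and 24 TPM, whereas lung CD44high held 0 and 0.11 TPM and MFP 0.1 and 0 TPM. Its log2 difference to MFP was 3.31 in LN CD44low and 4.41 to 4.999 in the other groups called, and 0.01 in lung CD44high. The remaining cartilage chains were low. Col11a2 did not exceed 2.66 TPM, Col27a1 4.64 TPM, Col9a3 2.56 TPM and Col9a2 1.5 TPM, each highest in a BM library, and none was called because no log2 difference passed 2. The 1 added to each TPM shrinks differences at such low levels. The other cartilage markers went unevenly with these genes. Cnmd, which encodes chondromodulin of cartilage, was at 133 and 128 TPM in BM CD44low, 86.4 and 117 TPM in BM CD44high, 75.8 and 64.9 TPM in LN CD44high, 0.91 and 8.66 TPM in LN CD44low and at most 0.1 TPM in MFP and lung. Sox9, a transcription factor of cartilage that mammary epithelium also expresses, was between 57.7 and 358 TPM in all 14 libraries, while Acan, the aggrecan core protein that defines cartilage matrix, was at or below 0.08 TPM and Matn1 and Matn3 at or below 0.18 TPM. The summed level of the 6 markers ranged from 153 to 155 TPM in MFP, 112 to 234 in LN, 209.8 to 487 in BM and 58.1 to 74.5 in lung. The part of cartilage-like cells in the Col2a1 result was not tested.

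**Figure D3:**
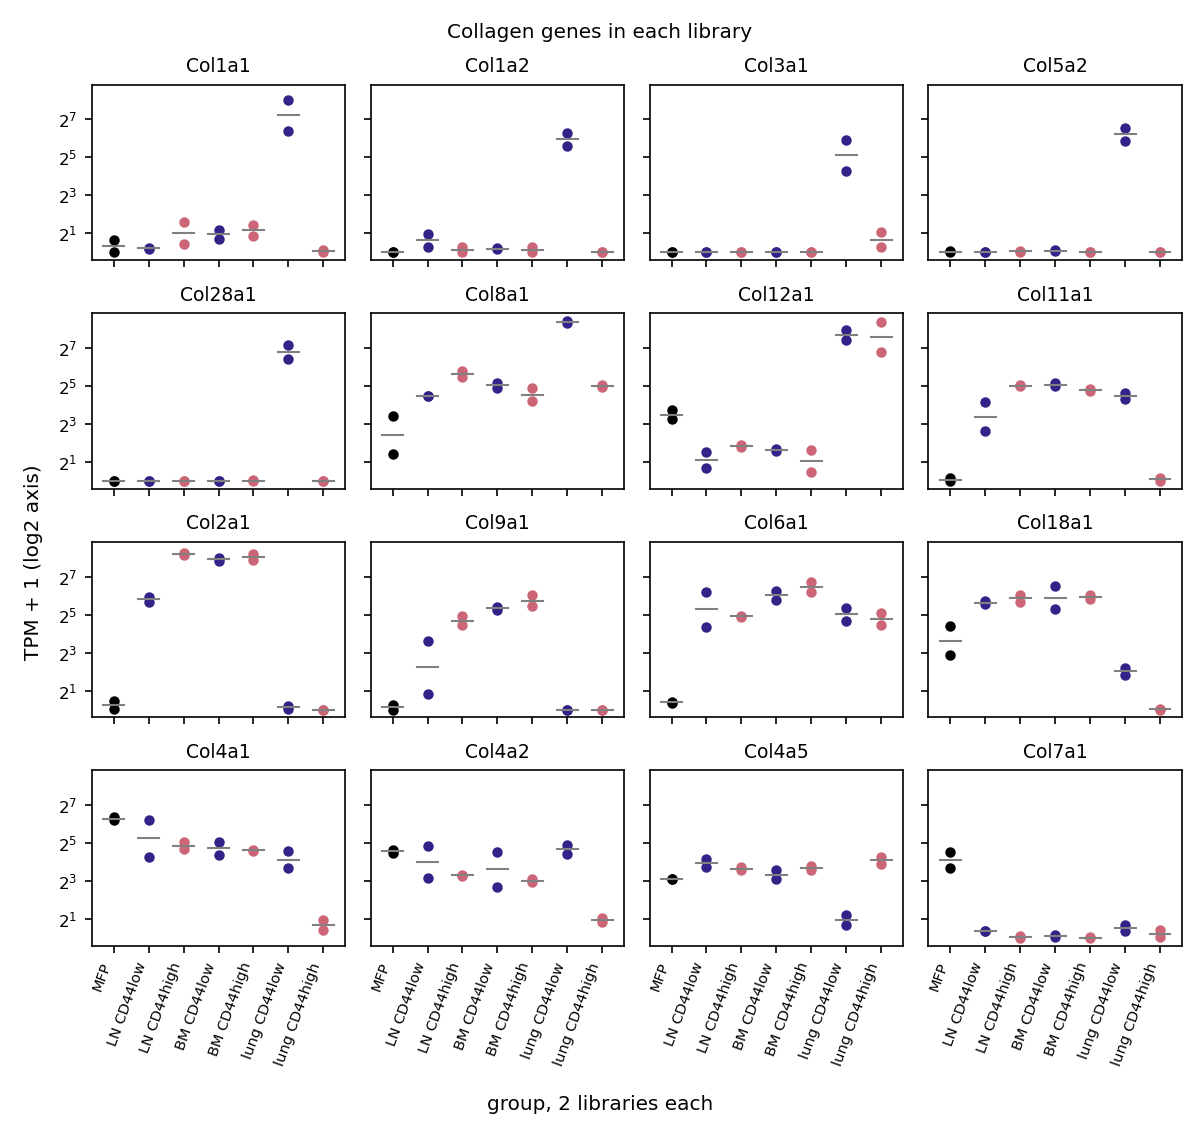
Points give TPM + 1 on a log2 axis for 16 collagen genes in the 2 libraries of each of 7 groups (black MFP, blue CD44low, red CD44high), and grey lines the mean of the pair on that scale. Col1a1 to Col28a1 rise in lung CD44low alone, Col12a1 in both lung groups, and Col2a1 and Col9a1 in the LN and BM groups.

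Col12a1, a fibril-associated collagen that links fibrils to their surroundings (chr9:79598991-79718831), was high in both lung groups. It was at 169.7 and 248 TPM in lung CD44low and 327 and 111 TPM in lung CD44high, against 12.2 and 8.55 TPM in MFP. The log2 difference to MFP was 4.20 (SE 0.54, adjusted p = 0.00018) for lung CD44low and 4.09 (SE 0.54, adjusted p = 0.0003) for lung CD44high. In LN CD44low it was at 1.9 and 0.59 TPM, in LN CD44high at 2.42 and 2.74 TPM, in BM CD44low at 2.23 and 1.99 TPM and in BM CD44high at 0.36 and 2.06 TPM, so every LN and BM library lay below both MFP libraries. It was called lower in LN CD44low (-2.39, SE 0.54, adjusted p = 0.016), which was lost without LN CD44low replicate 2 (-1.95, adjusted p = 0.1), MFP replicate 1 (-2.15, adjusted p = 0.11) or MFP replicate 2 (-2.62, adjusted p = 0.057). It was also called lower in BM CD44high (-2.46, SE 0.54, adjusted p = 0.0088), which was lost without BM CD44high replicate 1 (-1.87, adjusted p = 0.077) or MFP replicate 1 (-2.23, adjusted p = 0.065). Col16a1, another fibril-associated collagen, was at 0.16 and 0 TPM in MFP and between 2.61 and 7.21 TPM in all 12 metastatic libraries. It was called higher in the LN, BM and lung CD44low groups by 2.11 in LN CD44low (2.00 and under the threshold without MFP replicate 2) to 2.81 in BM CD44high, and reached 1.94 in lung CD44high, just under the fold threshold.

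Among the basement membrane collagens, Col4a1 was highest on average in MFP and lowest in lung CD44high, and the other type IV genes had orders of their own. Col4a1 (chr8:11198423-11312826) was at 82.1 and 72.5 TPM in the MFP pair, 74 and 18.4 TPM in LN CD44low, 25 and 31.9 TPM in LN CD44high, 20.01 and 32.2 TPM in BM CD44low and 23.7 and 23.3 TPM in BM CD44high. It was at 11.8 and 23 TPM in lung CD44low and 0.33 and 0.97 TPM in lung CD44high. The log2 difference to MFP was -5.59 (SE 0.56, adjusted p = 4.7e-05) in lung CD44high and -2.16 (SE 0.56, adjusted p = 0.01) in lung CD44low, and the latter call was lost without lung CD44low replicate 1 (-1.70, adjusted p = 0.095) or MFP replicate 1 (-2.07, adjusted p = 0.059). In the LN and BM groups it was not called, and the 2 LN CD44low libraries were on either side of the other LN and BM libraries. Col4a2, its partner chain, was at 24.1 and 21.2 TPM in the MFP pair, 20.8 and 28.7 TPM in lung CD44low and 0.77 and 1.09 TPM in lung CD44high. In LN CD44low it was at 27.4 and 7.81 TPM, in LN CD44high at 8.86 and 8.79 TPM, in BM CD44low at 5.51 and 22.1 TPM and in BM CD44high at 6.76 and 7.49 TPM. It was called lower than MFP in lung CD44high alone (-3.62, SE 0.61, adjusted p = 0.0013).

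Col4a5, which belongs to specialized basement membranes, did the reverse within lung. It was at 0.63 and 1.34 TPM in lung CD44low and 13.9 and 18.4 TPM in lung CD44high, with 7.63 and 7.6 TPM in the MFP pair, 12.5 and 16.8 TPM in LN CD44low, 10.8 and 12.5 TPM in LN CD44high, 10.8 and 7.58 TPM in BM CD44low and 12.9 and 10.9 TPM in BM CD44high. The lung CD44low libraries lay below all others, with a log2 difference to MFP of -2.14 (SE 0.29, adjusted p = 0.00024) that was lost without lung CD44low replicate 1 (-1.88) and under median-ratio scaling of the libraries (-1.97). Its neighbour Col4a6 was at 2.61 and 2.45 TPM in MFP and at most 0.21 TPM elsewhere. Its adjusted p against MFP ran from 1.9e-06 to 1e-05, but every log2 difference stayed under the fold threshold. With 1 added to each TPM, even a fall from this MFP level to 0 stays under it (-1.82 in BM CD44low), so a call was not possible. Col7a1, the anchoring fibril collagen of stratified epithelia (chr9:108953586-108984875), was at 22.5 and 12.1 TPM in MFP and at most 0.6 TPM in the 12 metastatic libraries. It was called lower in each comparison with MFP, by -3.60 (lung CD44low) to -4.10 (BM CD44high). Col17a1, a collagen of epithelial anchoring junctions, stayed at or below 0.58 TPM and was not tested.

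Type VI collagen was nearly absent from MFP. Col6a1 (chr10:76708792-76726168) was at 0.33 and 0.26 TPM in the MFP pair, 19.1 and 72.6 TPM in LN CD44low, 28.4 and 29.2 TPM in LN CD44high, 54.2 and 73.7 TPM in BM CD44low, 104 and 71.1 TPM in BM CD44high, 24.7 and 39.7 TPM in lung CD44low and 32.7 and 20.6 TPM in lung CD44high. All 12 metastatic libraries lay above MFP, with log2 differences from 4.38 in lung CD44high to 6.07 in BM CD44high. Col6a2 followed it, at 0.03 and 0.11 TPM in the MFP pair, 6.65 and 31 TPM in LN CD44low, 18.6 and 16.6 TPM in LN CD44high, 27.7 and 41.1 TPM in BM CD44low, 53.8 and 38.4 TPM in BM CD44high, 11.7 and 20.2 TPM in lung CD44low and 12.2 and 9.13 TPM in lung CD44high. Its log2 differences to MFP ran from 3.43 in lung CD44high to 5.44 in BM CD44high, all called. Col6a3, the large chain of the same molecule, was lower and more selective, listed at 0 in MFP and lung CD44high and at 7.39 and 9.76 TPM in lung CD44low. It was at 1.8 and 1.83 TPM in BM CD44low, 6.64 and 2.89 TPM in BM CD44high, 0.05 and 0.96 TPM in LN CD44low and 0.87 and 0.2 TPM in LN CD44high. Against MFP it was called in lung CD44low (adjusted p = 9.6e-05) and BM CD44high (adjusted p = 0.0014), and the latter fell under the fold threshold without BM CD44high replicate 1 (adjusted p = 0.013).

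Col8a1, a short-chain network collagen known from vessel walls and corneal membranes (chr16:57624258-57754737), was the highest collagen of lung CD44low. It was at 339.7 and 319.6 TPM there and at 31.7 and 30.3 TPM in lung CD44high, 21.5 and 21.5 TPM in LN CD44low, 43.9 and 54.4 TPM in LN CD44high, 28.4 and 35.2 TPM in BM CD44low, 17.7 and 28.1 TPM in BM CD44high and 9.57 and 1.7 TPM in MFP. No other collagen gene reached 1 TPM in all 14 libraries. The log2 difference to MFP was 5.95 (SE 0.50, adjusted p = 8.4e-06) in lung CD44low, and it was also called higher in lung CD44high (2.58), LN CD44low (2.08), LN CD44high (3.22), BM CD44low (2.61) and BM CD44high (2.13). The MFP libraries lay far apart, and without MFP replicate 2 the difference fell under the threshold in LN CD44low (1.09), BM CD44low (1.63), BM CD44high (1.14) and lung CD44high (1.60). The LN CD44low call was also lost without either LN CD44low library (adjusted p = 0.0596 and 0.0848), and the BM CD44high call without BM CD44high replicate 2 (1.81, adjusted p = 0.085). Col28a1, a collagen with von Willebrand domains (chr6:7997808-8192617), was at 85.1 and 143 TPM in lung CD44low and at 0 or 0.03 TPM in the other 12 libraries (adjusted p = 1.5e-08 against MFP). Col18a1, a basement membrane collagen whose end fragment is endostatin, was at 19.7 and 6.24 TPM in the MFP pair, 46.4 and 50.8 TPM in LN CD44low, 50.4 and 64.1 TPM in LN CD44high, 37.5 and 89.7 TPM in BM CD44low, 63 and 55.4 TPM in BM CD44high, 2.54 and 3.55 TPM in lung CD44low and 0.02 and 0 TPM in lung CD44high. The lung libraries lay below every other library, and the log2 difference of lung CD44high to MFP was -3.60 (SE 0.49, adjusted p = 0.00036). In the LN and BM groups Col18a1 was called higher than MFP by 2.02 to 2.30, but each of these calls was lost without MFP replicate 2 (1.26 in LN CD44low, 1.48 in LN CD44high, 1.51 in BM CD44low and 1.54 in BM CD44high). They were also lost without either LN CD44low library (adjusted p = 0.054 and 0.095), LN CD44high replicate 2 (0.064), BM CD44low replicate 2 (0.054) or BM CD44high replicate 1 (0.0503).

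CD44high and CD44low lines of the same organ were compared next. In LN, 1 collagen gene was called higher in CD44high (0.117% of all genes) and 0 lower (0.0912%). It was Col2a1, with a log2 difference of 2.39 (SE 0.22, adjusted p = 0.0014), and the call was lost with a pseudocount of 0.1 (2.40, adjusted p = 0.15). Without LN CD44low replicate 2 the count rose to 3. In BM, limma called 0 higher (0.0521%) and 0 lower (0.0521%). At an unadjusted p under 0.05, 0 passed the fold threshold and 1 collagen gene passed whatever its fold, and the largest log2 difference was 0.95 (Col6a3). In lung, 1 was called higher (2.49%) and 10 lower (8.8%) in CD44high. The median log2 difference of the collagen genes against all genes was 0.22 against -0.13 in LN, 0.01 against -0.20 in BM and -0.41 against -0.01 in lung.

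The 10 collagen genes lower in lung CD44high were Col1a1, Col1a2, Col3a1, Col5a2, Col11a1, Col4a1, Col4a2, Col6a3, Col8a1 and Col28a1. Of these, Col1a2, Col3a1, Col5a2 and Col28a1 entered the test only through lung CD44low, so the count of 10 rests partly on the filter. Col1a1 fell with a log2 difference of -7.13 (SE 0.54, adjusted p = 5.4e-06), Col11a1 with -4.40 (SE 0.41, adjusted p = 2.5e-05) and Col3a1 with -4.44 (SE 0.43, adjusted p = 3.6e-05). Col8a1 fell by less (-3.37, SE 0.50, adjusted p = 0.00072), and the basement membrane chains Col4a1 (-3.44, SE 0.56, adjusted p = 0.0012) and Col4a2 (-3.73, SE 0.61, adjusted p = 0.0012) fell with the fibrillar ones. Col1a2, Col5a2, Col6a3 and Col28a1 were listed at 0 in both lung CD44high libraries, with adjusted p from 1.8e-08 (Col28a1) to 0.00015 (Col6a3). The gene that rose was Col4a5, by 3.13 (SE 0.29, adjusted p = 2.5e-05). Col12a1 (-0.10, 95% interval -1.32 to 1.11), Col6a1 (-0.26, -1.43 to 0.91) and Col16a1 (-0.41, -1.01 to 0.19) were not called.

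**Figure D4:**
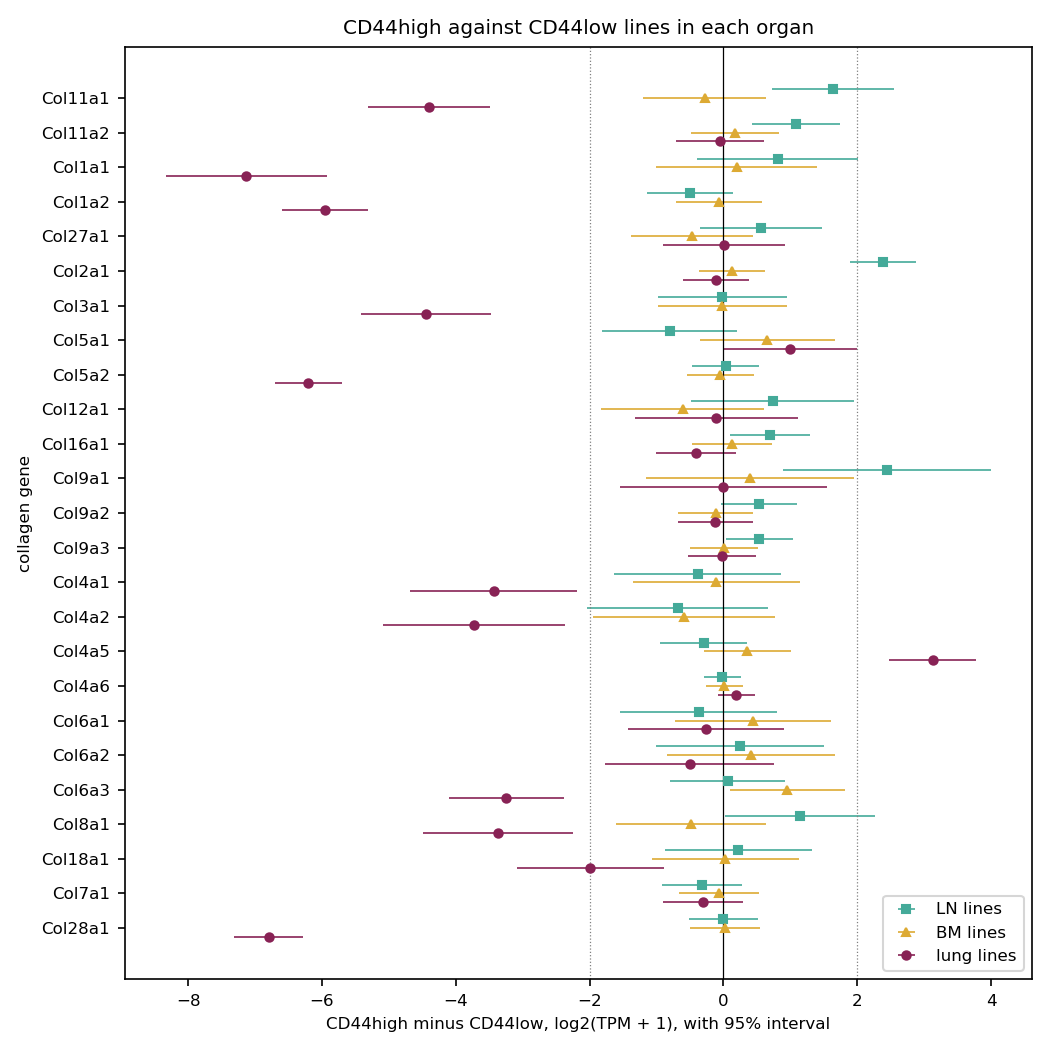
Symbols give the difference CD44high minus CD44low in log2(TPM + 1) with its 95% interval from limma for each tested collagen gene in LN (squares), BM (triangles) and lung (circles), and dotted lines mark the fold threshold of 2. Lung circles for Col1a1, Col1a2, Col3a1, Col5a2 and Col28a1 lie beyond -4 where LN and BM symbols lie within 1 of 0, and Col4a5 lies at 3.13 in lung.

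Whether the CD44 difference itself differed between organs was tested with interaction terms. Between lung and LN, the CD44 difference was called more negative in lung for 11 collagen genes (7% of all genes) and more positive for 1 (3.39%). Between lung and BM it was more negative for 10 (5.89%) and more positive for 1 (2.77%). The same lung libraries enter both tests. Col1a2, Col3a1, Col5a2 and Col28a1, called in both, were in the tested set only through lung CD44low. Col1a1 gave -7.95 (SE 0.76, adjusted p = 5.5e-05) against LN and -7.33 (SE 0.76, adjusted p = 0.0001) against BM. Col11a1, which LN and BM lines of both kinds carried, gave -6.04 (SE 0.58, adjusted p = 5.5e-05) and -4.12 (SE 0.58, adjusted p = 0.00079). Col4a5 was the positive one, at 3.42 (SE 0.41, adjusted p = 0.00026) against LN and 2.77 (SE 0.41, adjusted p = 0.0012) against BM. Col2a1 was called against LN alone (adjusted p = 0.00036), where lung CD44high was listed at 0. Both Col4a2 calls (adjusted p = 0.034 against LN and 0.035 against BM) were lost in 11 of 14 fits that each left out 1 library, with adjusted p of 0.052 to 0.12 and 0.056 to 0.13. Those of Col4a1 were lost in 4 fits each, without LN CD44high replicate 1 or 2 (BM CD44high replicate 1 or 2 in the BM test), lung CD44low replicate 2 or lung CD44high replicate 1, with adjusted p of 0.054 to 0.097 and 0.054 to 0.084. The Col8a1 call against BM was lost without BM CD44high replicate 2 or any of the 4 lung libraries (0.061 to 0.083).

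The 4 lung libraries were also set against the 8 LN and BM libraries. In lung, 6 collagen genes were called higher (7.13% of all genes) and 5 lower (5.54%), or 6 and 8 with a pseudocount of 0.1, with a median of -0.57 against 0.20 over all genes. The lower genes were Col2a1 (-7.42), Col18a1 (-4.81), Col9a1 (adjusted p = 1.3e-05, listed at 0 in lung), Col4a1 (-2.45) and Col11a1 (-2.29). Col12a1 was higher by 6.23 (SE 0.33, adjusted p = 2.4e-07) and higher in 4 of 4 lung libraries. Of the other 5 higher genes, all but Col1a1 entered the test only through lung CD44low. These 5 genes (Col1a1, Col1a2, Col3a1, Col5a2 and Col28a1) were high in lung CD44low and near 0 in lung CD44high, so the average over the lung lines describes neither. The same holds for Col11a1, which was at 18.8 and 24 TPM in lung CD44low and 0 and 0.11 TPM in lung CD44high, and for Col4a1, at 11.8 and 23 TPM and 0.33 and 0.97 TPM in these groups beside 18.4 to 74 TPM in LN and BM.

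Chains that assemble into the same molecule were not always present at matching levels. Type I collagen takes 2 chains from Col1a1 for 1 from Col1a2, and in the lung CD44low libraries the ratio of their TPM was 1.74 and 3.30. Col4a1 and Col4a2 also pair 2 to 1, and the ratio of their TPM over the 12 libraries with both at 1 TPM or more ran from 0.568 to 3.63 with a median of 2.97. It was under 1 in the lung CD44low libraries (0.568 and 0.8). Col6a1 and Col6a2 kept close together, with a ratio between 1.53 and 2.88 in 12 libraries, whereas Col6a1 exceeded Col6a3 3.34 to 40.3 times in the 6 libraries where both could be compared. Col9a1 exceeded Col9a3 8.95 to 25.3 times in 7 libraries, and Col11a1 exceeded Col11a2 10.9 to 25.3 times in 6. In lung CD44low Col5a2 exceeded Col5a1, at a Col5a1 to Col5a2 ratio of 0.0814 and 0.083, whereas in the LN, BM and lung CD44high libraries Col5a2 was at or below 0.07 TPM beside Col5a1.

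Several of the genes are neighbours in the genome, with 8 pairs within 100000 bases (mm10, GENCODE vM21). Col3a1 and Col5a2 lie tail to tail on chromosome 1 with 24614 bases between them, and both were high in lung CD44low alone. Col4a1 and Col4a2 lie head to head on chromosome 8 with annotated starts that overlap by 22 bases. Col4a5 and Col4a6 lie head to head on chromosome X, 1308 bases apart. MFP was the only group in which Col4a6 reached 1 TPM, whereas Col4a5 did so in the LN, BM and lung CD44high libraries too. Col6a1 and Col6a2 lie 85161 bases apart on chromosome 10 in the same direction. Col9a1 and Col19a1 lie tail to tail, 9205 bases apart on chromosome 1, and Col19a1 did not exceed 0.03 TPM where Col9a1 reached 63.5 TPM.

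Genes that modify, fold, process, cross-link and bind collagen were read from 5 lists. P4ha3, Fkbp10, Creb3l1, Tll1, Loxl1, Loxl2, Itga11 and Mrc2 entered the test only through lung CD44low, and Pcolce2 only through MFP. The counts and medians of these lists therefore rest partly on the filter. In the prolyl and lysyl modification list, 8 of 14 tested genes were called higher in lung CD44low (11.2% of all genes) and 6 in lung CD44high (5.42%) than in MFP, and 5 were lower in lung CD44high than in lung CD44low (8.8%). Its median log2 difference between lung CD44low and MFP was 2.78 beside 0.00 over all genes. P3h4, of the complex that modifies prolines and lysines in the endoplasmic reticulum, was at 160.4 and 163 TPM in lung CD44low, 16.2 and 15.8 TPM in lung CD44high and 1.16 and 0.41 TPM in MFP. Its partner P3h3 was at 44.2 and 58.9 TPM in lung CD44low, 6.74 and 5.13 TPM in lung CD44high and 0 and 0.04 TPM in MFP. Both genes thus had the order of Col8a1 in lung, with lung CD44high between lung CD44low and MFP. P4ha2, a subunit of the enzyme that hydroxylates prolines, was at 87.5 and 105 TPM in lung CD44low and 4.52 and 7.67 TPM in lung CD44high (-3.81, SE 0.66, adjusted p = 0.0018). The related P4ha3 was at 16.6 and 24.3 TPM in lung CD44low and listed at 0 in lung CD44high (adjusted p = 1.3e-05).

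In the folding and export list, 6 of 10 were called higher in lung CD44low (11.2% of all genes), 3 in lung CD44high (5.42%) and 2 in each LN and BM group (2.07% to 3.99%) than in MFP, with a median log2 difference of 3.15 in lung CD44low. The collagen chaperone Serpinh1 (HSP47) was at 0.17 and 0.15 TPM in MFP and between 34.9 and 165 TPM in all 12 metastatic libraries. Sparc, a collagen-binding secreted protein, was at 1.39 and 0.42 TPM in MFP and between 427 and 2242 TPM in the others. These 2 genes were thus low in MFP alone, as were Col5a1, Col6a1 and Col6a2. Fkbp10, a folding enzyme of the endoplasmic reticulum, was at 120.3 and 133 TPM in lung CD44low and at or below 0.2 TPM elsewhere, and Creb3l1, a transcription factor of secretory cells, at 11.3 and 16.5 TPM and at or below 0.41 TPM elsewhere.

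Of 6 cross-linking genes, 4 were called higher in lung CD44low than in MFP (11.2% of all genes) and 5 lower in lung CD44high than in lung CD44low (8.8%), whereas lung CD44high had 1 higher (5.42%) and 1 lower (8.03%) than MFP. The list had a median log2 difference of 4.40 between lung CD44low and MFP. Lox, the lysyl oxidase that cross-links fibrils, was at 715 and 984 TPM in lung CD44low and at most 1.95 TPM in every other library, with a log2 difference of 8.73 (SE 0.31, adjusted p = 1.8e-08) to MFP. Its relatives Loxl1 (53.1 and 76.7 TPM in lung CD44low) and Loxl2 (9.63 and 16.4 TPM) were also highest there, and Loxl3 was also present in LN and BM (13.3 to 35.4 TPM against 0.35 and 0.21 TPM in MFP). In the propeptide processing list, 3 of 6 were called higher (11.2% of all genes) and 1 lower (7.62%) in lung CD44low than in MFP, with a median log2 difference of 1.001, and lung CD44high had 1 higher and 1 lower than MFP. Pcolce, an enhancer of the enzyme that trims fibrillar collagen ends, was at 505 and 506 TPM in lung CD44low, 8.01 to 55.9 TPM in LN and BM, 3.92 and 4.11 TPM in MFP and 1 and 1.84 TPM in lung CD44high. Its relative Pcolce2 was at 28.6 and 15.2 TPM in MFP and at most 0.36 TPM elsewhere. Adamts2, which removes the amino end of fibrillar collagens, was at 12.3 and 22.8 TPM in lung CD44low and 8 and 7.32 TPM in lung CD44high and at or below 0.02 TPM elsewhere. Bmp1, the enzyme that trims the other end, was at 136 and 73 TPM in lung CD44high and 19.9 and 32.2 TPM in lung CD44low.

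Of 7 tested collagen receptors, 6 were called higher in lung CD44low than in MFP (11.2% of all genes) and 4 lower in lung CD44high than in lung CD44low (8.8%), and 1 was called higher in lung CD44high than in MFP (5.42%). The fibrillar collagen integrin chain Itga11 was at 251 and 299.99 TPM, the uptake receptor Mrc2 at 87.7 and 96 TPM and the integrin chain Itga1 at 42.4 and 61.6 TPM in lung CD44low, against at most 0.65, 0.11 and 3.08 TPM in the other groups. Ddr2, a kinase receptor for fibrillar collagen, was at 376 and 458 TPM in lung CD44low, 15.0 to 99.9 TPM in LN and BM, 0.44 and 0.19 TPM in lung CD44high and 0.21 and 0.07 TPM in MFP. The median log2 difference of the receptors between lung CD44low and MFP was 5.39, which rests partly on Itga11 and Mrc2, tested only through lung CD44low. In the LN and BM groups each of these lists had 0 to 2 genes called higher than in MFP, beside 2.07% to 3.99% of all genes, with the most in folding and export (2 of 10 in each group) and cross-linking (2 of 6 in LN CD44high). The propeptide processing list also had 1 or 2 of 6 called lower than in MFP in each of these groups (2.72% to 4.03% of all genes), and the other lists 0.

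Markers of other cell types moved with the collagens. Of 7 tested fibroblast markers outside the collagens, 7 were called higher in lung CD44low (11.2% of all genes) and 4 in lung CD44high (5.42%) than in MFP, and their list of 10 summed to 4656 and 4864 TPM in lung CD44low, 215 and 102 TPM in lung CD44high, 7.06 to 45.0 TPM in LN and BM and 0.73 and 0.5 TPM in MFP. Lum, Thy1 and Tcf21 entered the test only through lung CD44low, and Pi16, Fap and Dpt were not tested. Among the markers below, Acta2, Tagln and Rgs5 also entered only through lung CD44low, and Cldn7 only through MFP. The counts called for these lists therefore rest partly on the filter. Dcn, the fibroblast proteoglycan decorin, made up most of the fibroblast sum, at 4091 and 4315 TPM in lung CD44low, while Fap and Dpt stayed at or below 0.07 TPM in every library. Of 6 tested smooth muscle and pericyte markers 3 were called higher in lung CD44low than in MFP (11.2% of all genes), with Acta2, smooth muscle actin, at 657 and 711 TPM against at most 1.36 TPM elsewhere, and the list of 8 summed to 759 and 826 TPM in lung CD44low, 2.7 and 0.97 TPM in lung CD44high, 20.9 to 128 TPM in LN and BM and 13.8 and 4.76 TPM in MFP. Acta2 made up most of the lung CD44low sum and not all members had its order. Mcam, an adhesion molecule of pericytes and endothelium, was at 1.55 and 1.32 TPM in lung CD44low, 12.9 and 4.31 TPM in MFP and 17.4 to 122 TPM in LN and BM. Des, the muscle filament protein desmin, was at 0.21 and 0.26 TPM in lung CD44low and 1.21 to 2.35 TPM in LN and BM, and Myh11, smooth muscle myosin, did not exceed 0.15 TPM in any library. Of 8 tested epithelial markers 8 were called lower in each lung group than in MFP (7.62% of all genes in CD44low and 8.03% in CD44high), and the list of 10 summed to 1.74 and 2.42 TPM in lung CD44low, 15.7 and 87.5 TPM in lung CD44high, 2103 to 4410.2 TPM in LN and BM and 7729 and 6885 TPM in MFP. The 6 endothelial markers summed to at most 0.28 TPM in every library. Among the 6 leukocyte markers Ptprc and Adgre1 were at or below 0.2 TPM, and the sum of 1.31 to 23.2 TPM was nearly all Cd68. Among the 5 mesothelial markers Wt1 was at 18.2 to 22.6 TPM in the 4 lung libraries and 0 elsewhere, Msln was at 309 and 414 TPM in MFP, and Upk3b and Upk1b were at or below 0.1 TPM, with list sums of 309 and 414 TPM in MFP, 3.79 to 18.6 TPM in LN and BM and 18.3 to 24.5 TPM in lung. In LN CD44low, LN CD44high, BM CD44low and BM CD44high, 1, 2, 3 and 2 of the 7 fibroblast markers and 1, 2, 2 and 0 of the 6 smooth muscle and pericyte markers were also called higher than in MFP (2.07% to 3.99% of all genes). In the same groups 3, 2, 2 and 3 of the 8 epithelial markers were called lower (2.72% to 4.03%), beside the collagens called there. The part of these cell types in the lung, LN and BM results was not tested.

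The single-cell libraries show how the same genes were spread over cells. Barcodes were kept with over 250 genes and under 10% of counts in mitochondrial genes, which left 1236 of 3623 in lung CD44high, 348 of 2808 in lung CD44low and 2562 of 3297 in LN CD44high. Median counts per kept cell were 557, 4011 and 585. With 1 library a group there is no test, intervals are exact Poisson or binomial 95% intervals that cover counting error only, and the matrices do not state whether their counts are molecules or reads. Cells carry running numbers in the matrices, so barcodes common to libraries could not be counted, and doublets were not called. Single-cell levels are counts per 10000 summed over kept cells, with no length scaling, and are compared between libraries and not between genes.

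Collagen counts were 56.3 per 10000 in lung CD44low (95% interval 55.3 to 57.3), 10.3 in lung CD44high (9.84 to 10.7) and 11.05 in LN CD44high (10.8 to 11.3). As means of per-cell values they were 7.02 in lung CD44high and 6.08 in LN CD44high, so the order of these libraries depends on the summary. Counts were seen for 31, 22 and 28 of the 44 genes. The fibrillar class was at 28.9 per 10000 in lung CD44low, 1.54 in lung CD44high and 3.12 in LN CD44high. Basement membrane collagens were at 9.92, 3.37 and 5.18 per 10000.

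Col1a2 was at 14.4 (95% interval 13.9 to 14.9) per 10000 in lung CD44low, had 0 counts in lung CD44high, where 3 counts would give 0.0136 per 10000, and 2 counts in LN CD44high. Col1a1 was at 4.35 (95% interval 4.08 to 4.63), 0.0226 and 0.0265 per 10000 in lung CD44low, lung CD44high and LN CD44high, and Col5a2 at 7.43 (95% interval 7.07 to 7.79) with 0 counts in both others. Col6a3 was at 7.5 (95% interval 7.15 to 7.87) in lung CD44low, 0 counts in lung CD44high and 0.0189 in LN CD44high. These 4 genes were thus highest in lung CD44low in single cells, as in bulk. The short-chain class, which holds Col8a1, was at 2.21, 0.357 and 1.03 per 10000 in lung CD44low, lung CD44high and LN CD44high. The beaded filament class was at 10.6, 2.17 and 0.685 per 10000. Lung CD44high thus lay above LN CD44high for that class, whereas its bulk sums were 44.95 and 29.8 TPM beside 47.8 and 46 TPM in LN CD44high. Col12a1 was at 3.65 (95% interval 3.4 to 3.91) in lung CD44low and 2.54 (95% interval 2.33 to 2.76) in lung CD44high, with 1 count in LN CD44high. Col2a1 was at 1.27 (95% interval 1.17 to 1.37) in LN CD44high and had 0 counts in both lung libraries, and Col11a1 was at 1.4 (95% interval 1.3 to 1.51) in LN CD44high, 0.131 in lung CD44low and 0.00452 in lung CD44high.

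Some genes stood differently in single cells and in bulk. Col28a1, at 85.1 and 143 TPM in the bulk lung CD44low libraries, had 1 count in the lung CD44low cells. The fibroblast marker Dcn, at 4091 and 4315 TPM in bulk, had 22 counts, and Lum, at 362 and 217 TPM in bulk, had 0, while Acta2 was at 45.6 and Lox at 3.7 per 10000. Col4a1 and Col4a2, at or below 1.09 TPM in bulk lung CD44high, were at 1.39 (95% interval 1.24 to 1.56) and 1.58 (95% interval 1.42 to 1.75) per 10000 in lung CD44high cells, beside 2.68 (95% interval 2.54 to 2.82) and 1.51 (95% interval 1.4 to 1.62) in LN CD44high. Col4a5, also higher in bulk lung CD44high than in lung CD44low, was at 0.38 (95% interval 0.303 to 0.47) in lung CD44high and 0.198 (95% interval 0.144 to 0.266) in lung CD44low, the same order. Krt8, an epithelial keratin, had 369 counts in lung CD44high cells (1.67 per 10000), 30 in lung CD44low cells and 1483 in LN CD44high cells (2.8), and Epcam had 3, 0 and 936. The single-cell and bulk libraries differ in chemistry and in the tool that counted them. Whether they come from the same isolates is not stated in the sources used here, and only 348 of 2808 lung CD44low barcodes were kept. The parts of chemistry, counting tool, isolate and kept cells in these differences cannot be told apart.

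**Figure D5:**
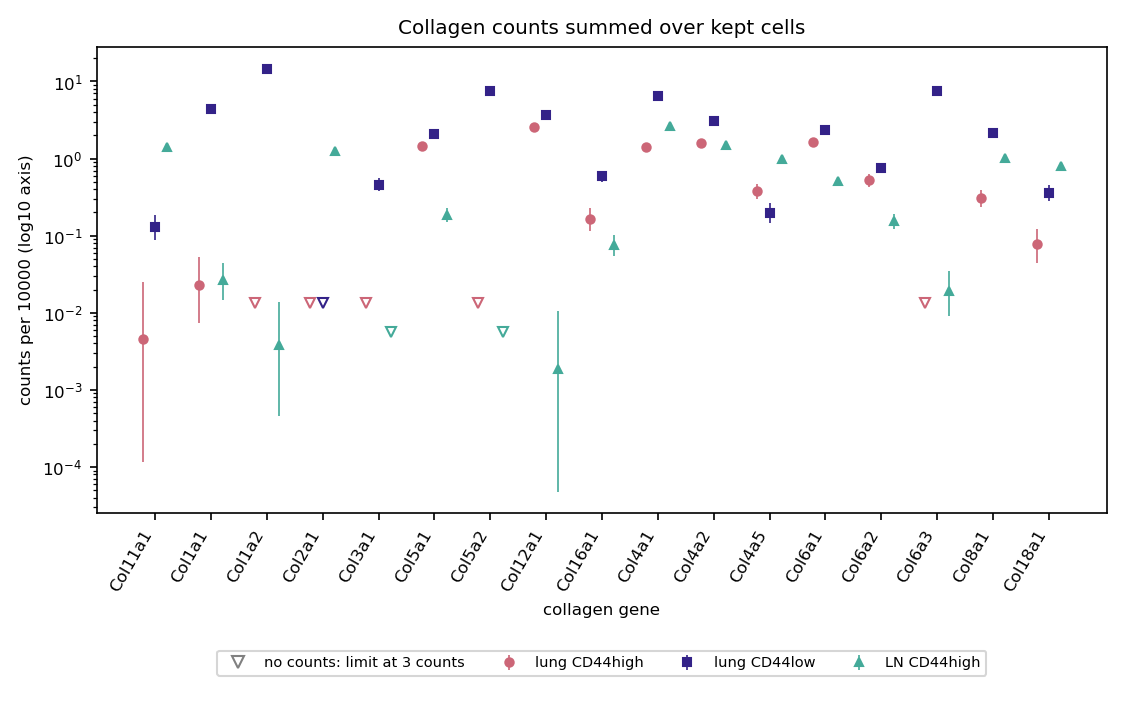
Points give counts per 10000 summed over kept cells (log10 axis) with exact Poisson 95% intervals for 17 collagen genes in 3 single-cell libraries, and open triangles the limit of 3 counts where there were none. Lung CD44low (squares) lies highest for Col1a1, Col1a2, Col5a2 and Col6a3, LN CD44high (triangles) for Col2a1, Col11a1, Col4a5 and Col18a1.

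The number of collagen counts per cell differed between the libraries. No collagen count was found in 69.7% of lung CD44high cells, 18.7% of lung CD44low cells and 69.2% of LN CD44high cells. After each cell was thinned to 500 counts, leaving out 288, 34 and 659 shallower cells, the share without a collagen count was 78.1%, 32.5% and 75.8%. In thinned lung CD44low cells the largest number of collagen counts in a cell was 30 and the mean 2.82, against 8 and 0.363 in lung CD44high and 5 and 0.312 in LN CD44high. Col1a1 was counted in 49.7% of lung CD44low cells (95% interval 44.3 to 55.1), and in 17.2% after thinning. In the libraries of groups where bulk Col1a1 did not exceed 1.98 TPM the share was 0.405% (0.105% thinned) in lung CD44high and 0.546% (0.105% thinned) in LN CD44high. The barcodes not kept in those libraries held Col1a1 at 0.0406 and 0.0248 per 10000, so their shares do not give the background of lung CD44low. In the lung CD44low library itself, the barcodes that were not kept held Col1a1 at 1.15 per 10000 (88 counts) beside 4.35 in the kept cells, and Col1a2 at 4.21 beside 14.4, and the part of free RNA in the share of cells with a count was not tested. Col2a1 was counted in 8.51% of LN CD44high cells (7.46 to 9.66), and in 2.15% after thinning, with none in either lung library. The barcodes not kept in LN CD44high held Col2a1 at 1.46 per 10000 (59 counts) beside 1.27 in the kept cells, so this share is not told apart from free RNA.

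Within lung CD44low, several collagens were higher in the cells that held a Col1a1 count. In 54 thinned cells with a Col1a1 count Col1a2 was at 46.3 per 10000 (95% interval 38.5 to 55.2), and in 260 without one at 8.54 (7.02 to 10.3), a ratio of 5.42. The ratio was 8.43 for Col3a1 (2.59 against 0.308 per 10000, from few counts), 3.78 for Col5a2, 3.70 for Col12a1 and 3.85 for Col8a1. It was 1.18 for Acta2, 1.23 for Lox and 1.03 for Sparc, whose intervals overlapped between the cells. In lung CD44high the same split by a Col12a1 count (68 thinned cells with one, 880 without) gave ratios of 0.809 for Col8a1, 0.761 for Col5a1 and 1.29 for Col4a5, but the cells with Col12a1 held only 1 or 2 counts of each, too few to show a rise or its absence. These are descriptions within a library, since cells are not replicates.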

How the data were processed

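RNA from 14 bulk libraries was converted to cDNA with a modified SMART-seq2 protocol, and the authors aligned reads with STAR to mm10 and quantified genes with RSEM. The deposited bulk table holds TPM only, per the file headers, so limma replaced a count test and read depth could not be weighed. Single-cell libraries were made with a droplet 3′ kit, and the deposited matrices hold counts per gene and barcode that the authors obtained with kallisto. The methods state 2 single-cell replicates, of which 1 library each was analysed here. Versions of these tools are not given in the sources used here.

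Gene identifiers were paired with symbols by the row names of a single-cell matrix. Members and gene lists were chosen with earlier results of these data known. TPM was transformed as log2(TPM + 1), the 15348 genes reaching 1 TPM in 2 or more libraries entered the fit, and limma 3.58.1 (R 4.3.3, trended variance) was fitted over 7 group means. Calls needed a log2 difference over 2 and a Benjamini-Hochberg adjusted p below 0.05 over all genes tested. The fit and call step was tested on simulated data. Genes were named where called in a comparison, and of each pathway list the 4 genes with the largest log2 differences among those called in a lung comparison. Marker genes were named after their values were seen. Libraries of a group are clonal isolates from different mice by the study's methods. Alternatives were an unadjusted p, a pseudocount of 0.1, no filter, median-ratio scaling, the replicate number as a block and each library left out. For single cells, cells with over 500 genes, a mitochondrial limit of 20%, all barcodes and means of per-cell values were tried. Sums, thinning and intervals were computed with Python 3.11.15, numpy 2.4.6, pandas 2.3.3 and scipy 1.17.1. Bulk values are limited by 2 libraries a group, and single-cell intervals cover counting error only.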

Additional observations from a re-analysis of the deposited data

Results flagged for a closer look

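The difference between CD44high and CD44low lines was itself different in lung than in LN or BM for 12 collagen genes, by the interaction term of the limma fit. On the log2(TPM + 1) scale the term against LN was -7.95 for Col1a1, -6.04 for Col11a1, -4.43 for Col3a1 and -4.52 for Col8a1. Against BM it was -7.33 for Col1a1, -4.12 for Col11a1, -4.43 for Col3a1 and -2.89 for Col8a1, and this last call was lost in 5 of 14 fits that left out 1 library. The basement membrane chains gave -3.05 (Col4a1) and -3.04 (Col4a2) against LN, and -3.33 (Col4a1) and -3.13 (Col4a2) against BM. Both Col4a2 calls were lost in 11 of these 14 fits, with the replicate block and without the filter on low TPM, and both Col4a1 calls in 4 of the 14. Col4a5 was the gene with a positive term, 3.42 against LN and 2.77 against BM. For Col1a2, Col28a1, Col5a2 and Col6a3 lung CD44high was listed at 0 in both libraries, so the size of the term rests on the pseudocount, as it does for Col1a1 and Col11a1, whose lung CD44high levels did not exceed 0.08 and 0.11 TPM. The terms of the first 4 were -5.45 and -5.89 for Col1a2, -6.80 and -6.82 for Col28a1, -6.24 and -6.16 for Col5a2 and -3.31 and -4.20 for Col6a3 (LN and BM in this order). The term of -2.49 for Col2a1 against LN came from its CD44 difference in LN (2.39), beside -0.11 in lung. The lung libraries in these terms are those in which Epcam was near 0.

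Barcodes that did not pass the cell filters also carried collagen counts. They held 17.4 per 10000 in lung CD44low, 6.82 in lung CD44high and 11.1 in LN CD44high, against 56.3, 10.3 and 11.05 in the kept cells. In LN CD44high the barcodes left out and the kept cells thus had nearly the same level.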

How the results depend on the processing

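The counts of called collagen genes moved by less than 1.5 times under most alternatives. Exceptions were BM CD44low and LN CD44high against MFP, which rose from 10 to 16 and from 10 to 15 with a pseudocount of 0.1, and CD44high against CD44low in LN, which went from 1 to 0 with that pseudocount and to 2 with an unadjusted p. With the pseudocount of 0.1, lung against LN and BM gave 6 higher and 8 lower in place of 6 and 5. The cause was not tested. When 1 library at a time was left out, the counts against MFP ran from 6 to 10 in LN CD44low (6 without MFP replicate 2), 9 to 10 in LN CD44high, 8 to 11 in BM CD44low, 9 to 12 in BM CD44high, 14 to 17 in lung CD44low and 8 to 10 in lung CD44high. They ran from 1 to 3 for CD44 in LN (3 without LN CD44low replicate 2), 0 to 0 in BM, 11 to 11 in lung and 11 to 11 for lung against LN and BM, and from 10 to 13 and 8 to 12 for the interactions with LN and BM. Of 113 calls of a gene in a comparison, 94 were kept in all of these fits, 19 were lost in at least 1 and 0 reversed under any alternative.

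Libraries with the same replicate number showed little shared deviation (r from -0.194 to 0.168 over 21 pairs of groups). Whether libraries with the same number come from the same mouse is not stated in the sources used here, and these correlations cannot show it. A fit with the replicate block gave 10 calls in LN CD44low, 10 in LN CD44high, 10 in BM CD44low, 12 in BM CD44high, 16 in lung CD44low and 9 in lung CD44high against MFP, and lost the 2 interaction calls of Col4a2 (adjusted p = 0.051 and 0.054), which were also lost without the filter on low TPM. Median-ratio scaling moved the median of all genes by 0.16 to 0.38 in the LN and BM comparisons with MFP, by 0.13 and 0.20 for CD44 in LN and BM, by -0.22 for lung against LN and BM and by -0.14 and -0.20 for the interactions, and ended 1 call (Col4a5 in lung CD44low). In single cells, a minimum of 500 genes gave 11.999 collagen counts per 10000 in lung CD44high, 57.4 in lung CD44low and 12.8 in LN CD44high. All barcodes gave 9.20 and 46.3 in the lung CD44high and CD44low libraries, and the mean of per-cell values 7.02 in lung CD44high and 6.08 in LN CD44high.

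With 2 libraries a group and no read counts, no counting interval was set for a TPM of 0. The lung lines lacked Epcam, so cell identity and organ cannot be told apart there.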
